A study of Homo sapiens with 10 samples.

Results

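The 7 histone genes H2BC4, H2BC12, H2BC21, H2BC5, H2AC6, H2AC25 and H4C8 were read on 10 microarrays of IMR90 cells, a normal human fibroblast line from fetal lung. They were chosen from the replication-dependent histone genes with these same arrays. At least 1 probe set of each was higher in senescent than in proliferating cells. The choice does not hold every such gene, since H3C6 and H2AC15, described below, also had a higher probe set. Because this contrast chose the genes, their differences between the states are given as a description, with no test. The genes were found as all probe sets to which the platform annotation gives exactly 1 of these symbols, which gave 10 of the 54675 probe sets and 7 of the 19775 named genes. The 5 senescent arrays hold cells at 90 population doublings that had been passaged until growth ended and were then kept for 2 weeks, and the 5 proliferating arrays hold cells at 28 population doublings. All cells grew in 3% oxygen and 10% serum, the labels name no drug or genetic change in either group, and the passage number differs together with the growth state. The line is 1 strain, and nothing in the labels says that the 5 samples of a group were grown separately, so the p-values below cover only how far these samples scatter, and that scatter may be technical.

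Nucleosomes wrap DNA around a core of the histones H2A, H2B, H3 and H4, and a linker histone, H1, binds where the DNA enters and leaves. Most of the genes for these proteins lie in clusters, are transcribed mainly in S phase and are called replication-dependent. Their mRNAs have no introns and usually end in a stem-loop instead of a poly(A) tail, and they are degraded when DNA synthesis stops. A few of the same genes, H2BC5, H2BC12 and H2BC21 among them, are also known to give polyadenylated transcripts in cells that have left the cycle. The array label protocol is given only as the standard of the manufacturer, and the stem-loop and polyadenylated forms of a gene were not told apart here.

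The 7 promoters were taken from RefSeq (GRCh38.p14) to show what the genes share apart from the measurement that chose them, and all 7 were matched. Sequences of 250 bases that end at the base before the annotated start were searched on both strands for the CCAAT box (CCAAT), the TATA box (TATAAA), the octamer bound by POU2F1 (ATTTGCAT) and an E2F-like site (TTTNGCGC). H2BC4 (chr6:26123927-26124176, minus strand) and H2AC6 (chr6:26123922-26124171, plus strand) are transcribed away from each other, and their 2 windows are the same DNA over 245 bases, so only the first is printed. H2BC12 (chr6:27146859-27147108, minus strand), H2BC21 (chr1:149886683-149886932, minus strand), H2BC5 (chr6:26157871-26158120, plus strand) and H4C8 (chr6:26285535-26285784, minus strand) are shown beside it. Capitals mark every match.
H2BC4: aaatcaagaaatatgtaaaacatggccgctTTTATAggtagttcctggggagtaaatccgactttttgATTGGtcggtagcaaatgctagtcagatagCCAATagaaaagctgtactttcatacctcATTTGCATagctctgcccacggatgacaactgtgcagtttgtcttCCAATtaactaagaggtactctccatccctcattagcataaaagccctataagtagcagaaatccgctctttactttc
H2BC12: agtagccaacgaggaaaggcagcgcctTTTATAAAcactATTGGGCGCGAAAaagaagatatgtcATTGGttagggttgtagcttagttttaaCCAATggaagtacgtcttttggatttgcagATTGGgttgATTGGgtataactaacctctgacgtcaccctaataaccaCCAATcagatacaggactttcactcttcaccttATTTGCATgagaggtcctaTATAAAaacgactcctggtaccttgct
H2BC21: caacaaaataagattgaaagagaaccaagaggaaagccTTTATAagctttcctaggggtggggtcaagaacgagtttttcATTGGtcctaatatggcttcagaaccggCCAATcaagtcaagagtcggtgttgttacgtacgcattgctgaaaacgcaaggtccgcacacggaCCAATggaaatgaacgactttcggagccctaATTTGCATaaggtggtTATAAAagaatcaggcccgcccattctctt
H2BC5: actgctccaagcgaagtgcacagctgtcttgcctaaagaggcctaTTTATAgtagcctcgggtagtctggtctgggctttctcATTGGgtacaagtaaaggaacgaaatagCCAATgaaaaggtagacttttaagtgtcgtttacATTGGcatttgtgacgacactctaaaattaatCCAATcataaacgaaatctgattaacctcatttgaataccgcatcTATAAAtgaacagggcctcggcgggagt
H4C8: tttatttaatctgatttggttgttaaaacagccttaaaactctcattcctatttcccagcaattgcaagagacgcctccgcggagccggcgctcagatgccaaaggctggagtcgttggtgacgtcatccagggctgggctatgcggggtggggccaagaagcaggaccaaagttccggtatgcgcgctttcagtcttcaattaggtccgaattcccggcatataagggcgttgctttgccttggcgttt
A CCAAT box was found in 6 of the 7 promoters, with at least 2 copies in each of the 6, and the octamer in 4, those of H2BC4, H2AC6, H2BC12 and H2BC21. Near the start, TATAAA begins 31 bases before H2AC6, 27 before H2BC12, 30 before H2BC21 and 28 before H2BC5. The TATAAA of the H2BC4 window lies on the opposite strand and is the same stretch as that of H2AC6. In H2BC12 the farther TATAAA matches on both strands overlap each other, and a CCAAT match adjoins the E2F-like site without sharing a base. H2AC25, whose window is not printed, holds CCAAT 3 times and none of the other words, and H4C8 holds none of the 4. This says only that these letters are not in their windows. The same words were common in the rest of the family. Of 58 other replication-dependent histone promoters, 84.5% held CCAAT, 65.5% TATAAA, 37.9% the octamer and 17.2% the E2F-like site. Among the 27305 promoters of the table, one per gene, the shares were 33%, 11.1%, 1.66% and 1.54%.

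The arrays matched their labels where this could be read. All 8 fibroblast markers, such as COL1A1 and VIM, lay above the array's 60th percentile on all 10 arrays. Of 5 epithelial markers, KRT18 did so on all senescent arrays and KRT18, KRT19 and EPCAM on all proliferating arrays, and the summed log2 value of the 5 was 21.82 to 23.62 in senescent and 26.56 to 27.27 in proliferating samples. Of 5 endothelial markers TEK alone and of 4 leukocyte markers none lay above that percentile on every array of either group, and the summed log2 values were 20.01 to 20.42 against 19.12 to 19.68 and 10.13 to 10.52 against 10.08 to 10.21. The part of these markers in the histone differences was not tested. MKI67, the Ki-67 proliferation antigen, was at 6.12 ± 0.37 in senescent and 11.43 ± 0.15 in proliferating cells (SD, n = 5 each, limma's adjusted p = 1.39e-09). As a sign of RNA integrity, the 3' minus 5' difference of the ACTB control probe sets was 2.32 ± 0.10 in senescent and 2.07 ± 0.14 in proliferating samples (SD, n = 5 each, exact permutation p = 0.00794, adjusted over 4 control differences 0.0106). Values are the deposited log2 values, on which a difference of 1 is 2-fold. They are compared here for the same probe set only. Array medians lay between 3.05 and 3.12.

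The H2B genes among the chosen genes come first, and each had a probe set that was higher in senescence. H2BC4, which encodes a canonical H2B, was measured by 236193_at. Its log2 values were 8.73, 8.71, 8.80, 8.91 and 9.15 on the senescent arrays, against 3.24, 2.54, 3.27, 3.20 and 2.74 on the proliferating arrays. All 5 senescent values lay at least 5.44 above every proliferating value. The mean difference was 5.86 (SE 0.17), or 58.1-fold higher. On all 5 proliferating arrays the probe set lay below the 60th percentile (4.64 to 4.77 over the arrays), so this fold is measured against low signal. In RNA of whole cultures, a change in the share of cells with a transcript and a change in its amount per cell cannot be told apart.

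H2BC12 encodes an H2B of the same cluster on chromosome 6 and was read by 209806_at. On the senescent arrays it stood at 12.43, 12.36, 12.64, 12.64 and 12.67, against 8.17, 8.09, 8.12, 8.46 and 8.59 on the proliferating arrays. The groups were apart by 3.77, and both had clear signal, above the 60th percentile on all 10 arrays. The mean difference of 4.26 (SE 0.12) is 19.2-fold.

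H2BC21 lies in a smaller histone cluster on chromosome 1 and was read by 202708_s_at, whose suffix _s_at marks probes that match several similar transcripts. Senescent values were 9.75, 9.72, 9.62, 9.49 and 9.42, against proliferating values of 4.65, 3.53, 5.13, 4.19 and 5.21. The senescent arrays agreed within an SD of 0.14, whereas the proliferating ones spread with an SD of 0.70, the widest of any group of arrays among the 10 probe sets. The difference was 5.06 (SE 0.32), or 33.4-fold higher, and 3 of the 5 proliferating arrays were below the 60th percentile.

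H2BC5 had a pair of probe sets, both with the suffix _x_at for probes that can bind other sequences, and they went opposite ways. With 209911_x_at the values were 12.18, 11.99, 12.13, 12.11 and 12.11 in senescent cells, against 9.09, 9.03, 9.38, 9.52 and 9.40 in proliferating cells. With 222067_x_at they were 10.15, 10.24, 10.41, 10.18 and 10.60 in senescent cells, against 12.48, 12.87, 12.56, 12.58 and 12.64 in proliferating cells. The first was higher on every senescent array, by a mean of 2.82 (SE 0.10), and the second lower on every one, with a difference of -2.31 (SE 0.11). The mean of both probe sets differed by 0.25, so the direction stated for H2BC5 depends on which is read.

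**Figure D1:**
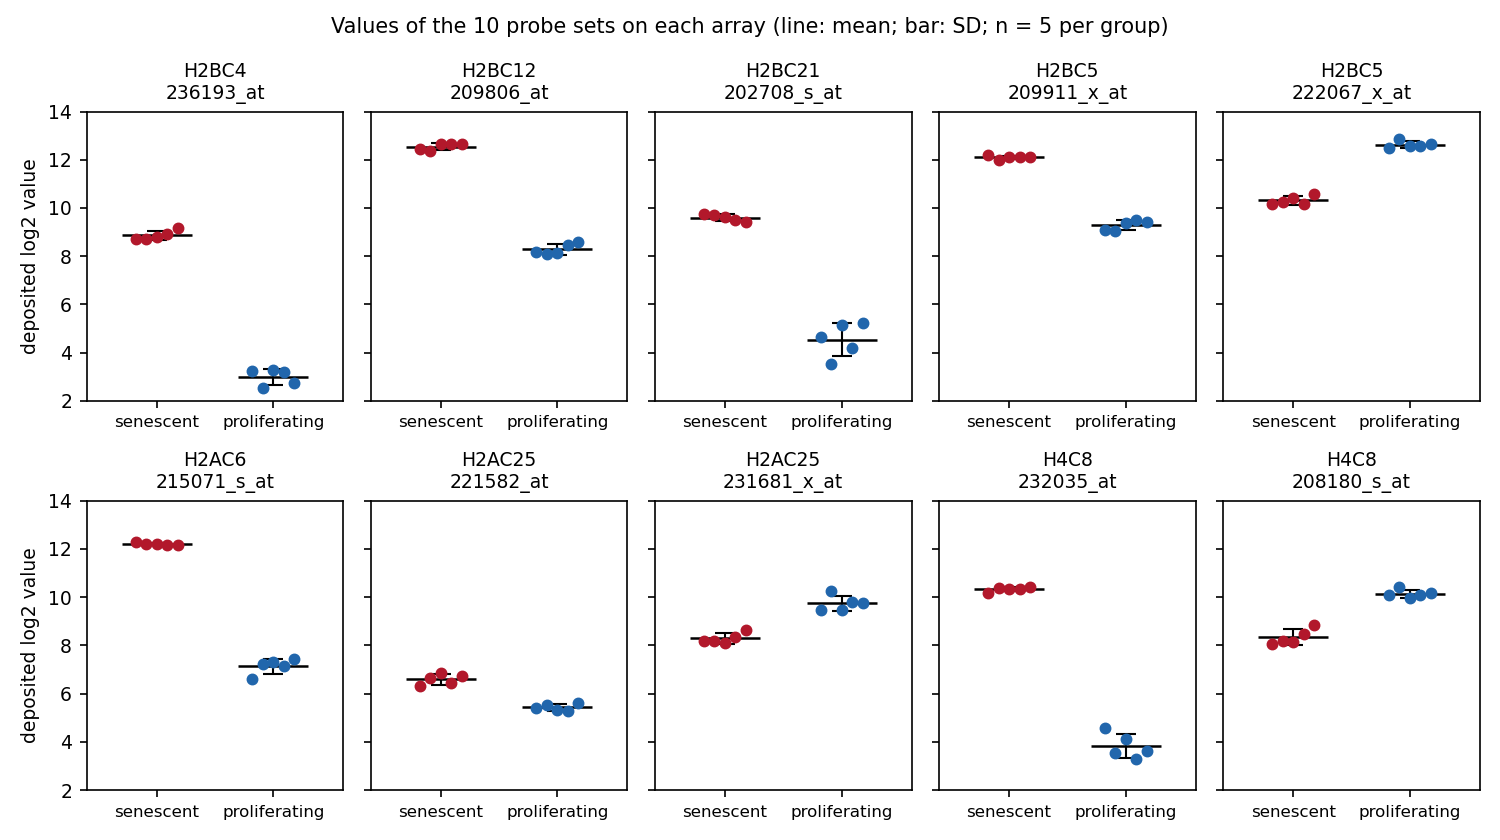
Deposited log2 value (vertical axis) of each of the 10 probe sets on the 5 senescent (left) and 5 proliferating (right) arrays, with points for arrays, lines for means and bars for SD. In 7 panels all senescent points lie above all proliferating points, and in 3 panels, for H2BC5, H2AC25 and H4C8, they lie below.

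H2AC6, which encodes a canonical H2A and shares its promoter DNA with H2BC4 as printed above, was read by 215071_s_at. It was at 12.28, 12.21, 12.22, 12.16 and 12.17 on the senescent arrays, against 6.61, 7.25, 7.30, 7.13 and 7.42 on the proliferating arrays. The senescent arrays were within 0.12 of each other and the groups 4.74 apart. The mean difference of 5.06 (SE 0.14) is 33.4-fold, and the signal was above the 60th percentile on every array of both groups.

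H2AC25, an H2A gene at a separate site on chromosome 1, showed the smallest differences and again a disagreement. By 221582_at it had 6.30, 6.64, 6.85, 6.43 and 6.73 in senescent cells, against 5.40, 5.52, 5.34, 5.27 and 5.63 in proliferating cells. By 231681_x_at it had 8.18, 8.19, 8.09, 8.37 and 8.65 in senescent cells, against 9.49, 10.25, 9.45, 9.80 and 9.74 in proliferating cells. The groups did not overlap in either case, but the gaps were only 0.67 and 0.80. The first probe set differed by 1.16 (SE 0.12) and the second by -1.45 (SE 0.17), and their mean by -0.15.

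H4C8, which encodes histone H4, a protein given by many gene copies, held the largest single difference and the widest disagreement among the 7 genes. With 232035_at the senescent arrays read 10.19, 10.40, 10.36, 10.35 and 10.42, against 4.57, 3.54, 4.11, 3.28 and 3.63 for the proliferating arrays. With 208180_s_at the senescent arrays read 8.06, 8.17, 8.16, 8.47 and 8.85, against 10.09, 10.42, 9.98, 10.08 and 10.17 for the proliferating arrays. The first difference was 6.52 (SE 0.23), 91.7-fold higher, with all 5 proliferating arrays below the 60th percentile. The second was -1.80 (SE 0.16), 3.49-fold lower, with clear signal in both groups. Their mean differed by 2.36.

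The 4 genes with 1 probe set were higher in senescent cells, and the 3 genes with 2 probe sets had 1 higher and 1 lower. Of the 10 probe sets 7 were higher and 3 lower, and in all 10 the groups did not overlap. The same lack of overlap held for 44.5% of the 32732 tested probe sets (23.2% higher and 21.3% lower), and nothing is read from the comparison because this contrast chose the genes. All 10 passed the filter on low values, H2BC4 with 4 of its 5 proliferating arrays above the 40th percentile and the other 9 probe sets with all 10 arrays. Ordered from the highest difference, 232035_at of H4C8 stood at place 12 of all tested probe sets, H2BC4 at 26, H2AC6 at 57, H2BC21 at 58, H2BC12 at 111, 209911_x_at of H2BC5 at 354 and 221582_at of H2AC25 at 2358. The 3 lower probe sets stood near the other end, 231681_x_at of H2AC25 at 31024, 208180_s_at of H4C8 at 31507 and 222067_x_at of H2BC5 at 31895. With the ACTB control difference as a covariate, every probe set kept its sign, but 231681_x_at of H2AC25 shrank to -0.95, against -1.45 without it. That control difference does not overlap between the groups either, so the covariate and the state cannot be told apart by this fit.

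The 10 probe sets can also be split by kind, again only as a description. All 4 probe sets with the plain suffix _at, taken to be specific to a transcript, were higher in senescent cells, and of the 6 with a shared suffix 3 were higher and 3 lower. The platform annotation ties 5 of the 10 probe sets to a GenBank record other than a RefSeq mRNA, and all 5 were higher, while of the 2 tied to a RefSeq mRNA 202708_s_at of H2BC21 was higher and 208180_s_at of H4C8 lower, and of 3 with no record given 1 was higher and 2 lower. Among other replication-dependent histone genes, 23 of 25 probe sets tied to a RefSeq mRNA fell and 1 rose, and of 4 tied to another record 1 fell and 2 rose. By suffix, 18 of their 24 _at probe sets fell and 3 rose, and all 7 with a shared suffix fell. These genes are what the choice of the 7 left of the family, so their directions are partly fixed by it. Over all 32732 probe sets 53% passed the same threshold, 26.9% higher and 26.2% lower. Probe sequences were not used here, and what each probe set binds was not tested.

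A further 8 probe sets are annotated to H2BC4 or H4C8 together with other genes of their type, and they name no gene. Of 3 annotated to 5 H2B genes, H2BC4 among them, 214455_at was higher, with values of 8.58 to 9.08 in senescent and 3.10 to 3.72 in proliferating samples. The remaining pair were lower, with 208490_x_at at 9.50 to 10.41 against 12.65 to 12.89 and 208523_x_at at 7.05 to 7.40 against 11.61 to 11.87 in senescent and proliferating samples. Probe sets with the same 5 genes in their annotation thus differed by 5.38, -3.01 and -4.53. Of 5 annotated to 14 H4 genes, H4C8 among them, 4 were lower, by differences of -1.20 to -4.78, and 208181_at was at 3.88 to 5.02 in senescent and 3.03 to 3.92 in proliferating samples, where the groups overlap.

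**Figure D2:**
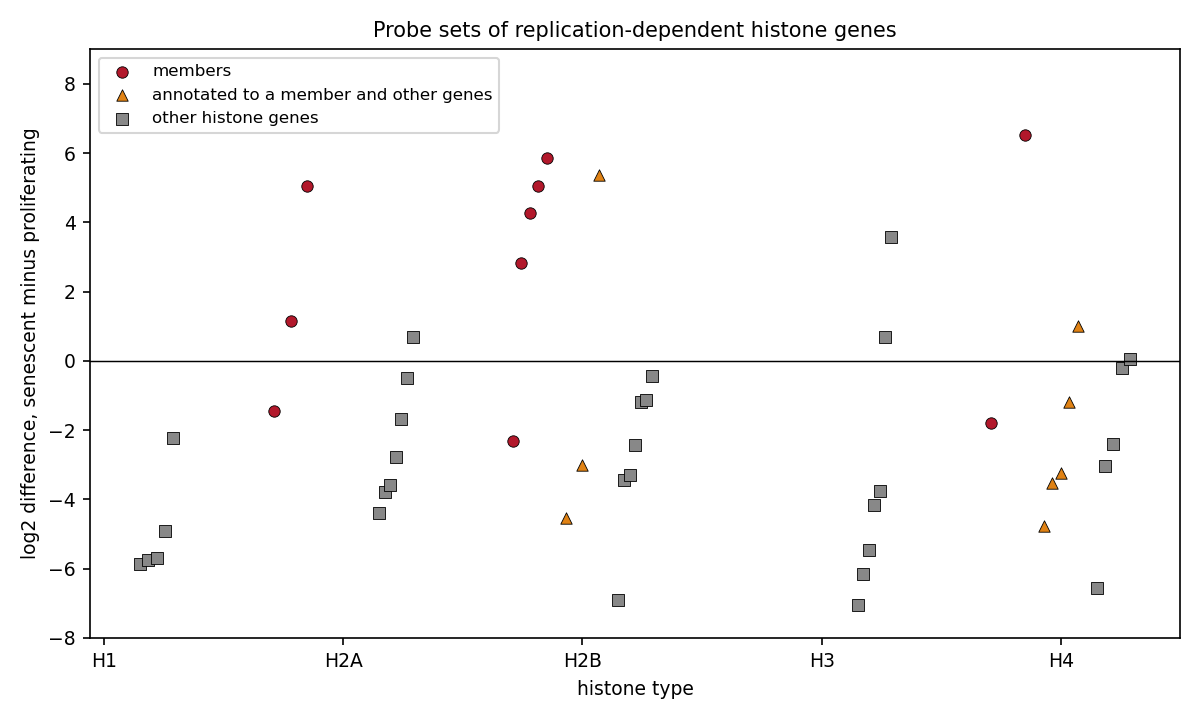
Log2 difference, senescent minus proliferating (vertical axis), of each probe set of replication-dependent histone genes by histone type, for the 7 genes described here (circles), probe sets annotated to one of them and other genes (triangles) and the other histone genes (squares). Most squares lie below 0, and the circles of the 3 genes with a pair of probe sets lie on both sides of it.

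Most other replication-dependent histone genes were lower in senescent than in proliferating cells, a count that the removal of the 7 genes by the same contrast partly fixes. Of 64 such genes listed, 37 had a probe set of their own and 29 passed the filter. Among these, H1-5, H3C7 and H2BC15 had no senescent array above the 40th percentile. H3C2 and H2BC14 had 1 such senescent array each, H3C8 had 2, and H1-4 and H4C4 had 3 each. All of these genes needed their proliferating arrays to pass the filter. In limma's fit over 12909 genes, 25 of the 29 fell and 1 rose, with a median of -3.44, and 23 fell and 2 rose when arrays were centred on housekeeping genes. Without the filter 25 of 37 fell. Over all genes 61.3% passed the adjusted threshold, 31% higher and 30.3% lower, with a median of 0.04. Higher genes made up 50.6% of these calls, and 81.1% with centring on housekeeping genes, which adds 0.417 to every difference. Linker H1 genes fell in 5 of 5 cases, H2A genes in 5 of 6, H2B genes in 7 of 7, H3 genes in 5 of 6 and H4 genes in 3 of 5. Among these H2B genes, H2BC15 and H2BC17 lay below the 60th percentile on every array. H2BC17 differed by -0.03 with centring on housekeeping genes and did not pass, nor did it with the ACTB covariate. The H2A gene H2AC16 did not pass in either of these settings. Without them it differed by -1.67 (limma's adjusted p = 0.0328), with an SD of 1.47 over its proliferating arrays. H2BC6, H2BC9 and H2BC12L were read by _x_at probe sets only. H3C2, H2BC14, H4C13 and H3C11 had the largest falls (-7.06, -6.91, -6.56 and -6.16) and lay below the 60th percentile on every senescent array.

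H3C6, which encodes a canonical H3, was the gene of this list that rose. By 236278_at it had 8.30, 8.18, 8.38, 8.26 and 8.34 on the senescent arrays, against 4.70, 4.58, 4.59, 4.68 and 4.98 on the proliferating arrays, a difference of 3.59 (limma's adjusted p = 3.31e-10 over all probe sets). Its other probe set, 214616_at, had the same direction with a difference of 0.69 (limma's adjusted p = 0.0196). Signal was low in places. On the proliferating arrays 236278_at lay above the 60th percentile on 1 and 214616_at on none, and the latter did so on 2 senescent arrays. H2AC15, an H2A gene, had probe sets of both signs. The difference was 0.70 with 239041_at (limma's adjusted p = 0.00623) and -0.50 with 214644_at (limma's adjusted p = 0.135). Both had low signal. The first lay above the 60th percentile on 1 senescent and no proliferating array, the second on 2 arrays of each group. Of the 29 genes H3C6 and H2AC15 were the only ones with more than 1 tested probe set, so for the others a disagreement could not be seen.

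Replication-independent histone genes, which are transcribed outside S phase as well, fell in 7 of 8 cases with a median of -1.96 (6 when centred on housekeeping genes, where MACROH2A1 no longer passed). Over all genes 30.3% fell, and 1952 of 12909 did so with that centring. The centromeric histone gene CENPA fell by 4.65, the DNA damage histone gene H2AX by 3.03, MACROH2A2 by 2.73 and H2AZ2 by 2.30 on the log2 scale. CENPA was read by an _x_at probe set that lay above the 40th percentile on no senescent array. It passed the filter only through its proliferating arrays, so its fall is measured against low signal. H2AJ, an H2A variant gene, did not pass by its probe set of highest signal, which differed by -0.15 and by 0.26 with that centring. Its 4 tested probe sets disagreed, at 1.93 (220936_s_at, 7.47 ± 0.14 in senescent and 5.55 ± 0.22 in proliferating cells, SD, n = 5 each) and 1.66 (228213_at), both past limma's threshold, and at -0.15 and -0.00 on its 2 _x_at probe sets.

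Most of the nearest tested neighbours of the 7 genes on the chromosome fell or did not pass the test. The same held for all tested genes, of which 31% rose and 30.3% fell. H2BC4 and H2AC6 are next to each other and were both higher. H1-4, the next gene after H2AC6 and the one before H2BC5, fell by 4.91, and H2BC6, the next gene after H2BC5, fell by 2.43 (limma's adjusted p = 2.12e-08 for H2BC6). H4C9, next to H2BC12, differed by 0.04 and did not pass, and lay below the 60th percentile on all 10 arrays. The nearest tested genes on the other sides, HFE for H2BC4 and ZNF322 for H2BC12, differed by 0.16 and 0.21 and did not pass. H3C8, the nearest tested gene before H4C8, fell by 5.45 (limma's adjusted p = 4.22e-08), and the butyrophilin gene BTN3A2 after it differed by 0.03 and did not pass. For H2BC21 the nearest tested genes were PDE4DIP, 18 protein-coding genes before it, and BOLA1, 3 after it. They differed by -0.34 and -0.03 and did not pass. BOLA1 had low signal, with means of 3.19 in senescent and 3.22 in proliferating cells. The nearest tested genes of H2AC25, TRIM11 and RNF187, rose by 0.43 and 0.38 (limma's adjusted p = 0.0263 and 0.00272).

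Between the first and last listed histone genes on chromosome 6, H2AC1 and H2BC17, RefSeq (GRCh38.p14) orders 74 protein-coding genes, 55 of them histone genes. Of the 19 others 12 were tested, of which 5 rose and 2 fell, with a median of 0.19. Over all tested genes 31% rose and 30.3% fell, with a median of 0.04, and nothing is read from the counts of this stretch. Named after their values were seen, BTN3A3, BTN2A1 and BTN2A2, genes of the butyrophilin family, rose by 1.72, 1.48 and 1.48, TRIM38 by 0.38 and BTN3A1 by 0.30. ZNF184 fell by 0.58 and HMGN4 by 0.48, and both differences are close in size to the shift of 0.417 from centring on housekeeping genes.

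**Figure D3:**
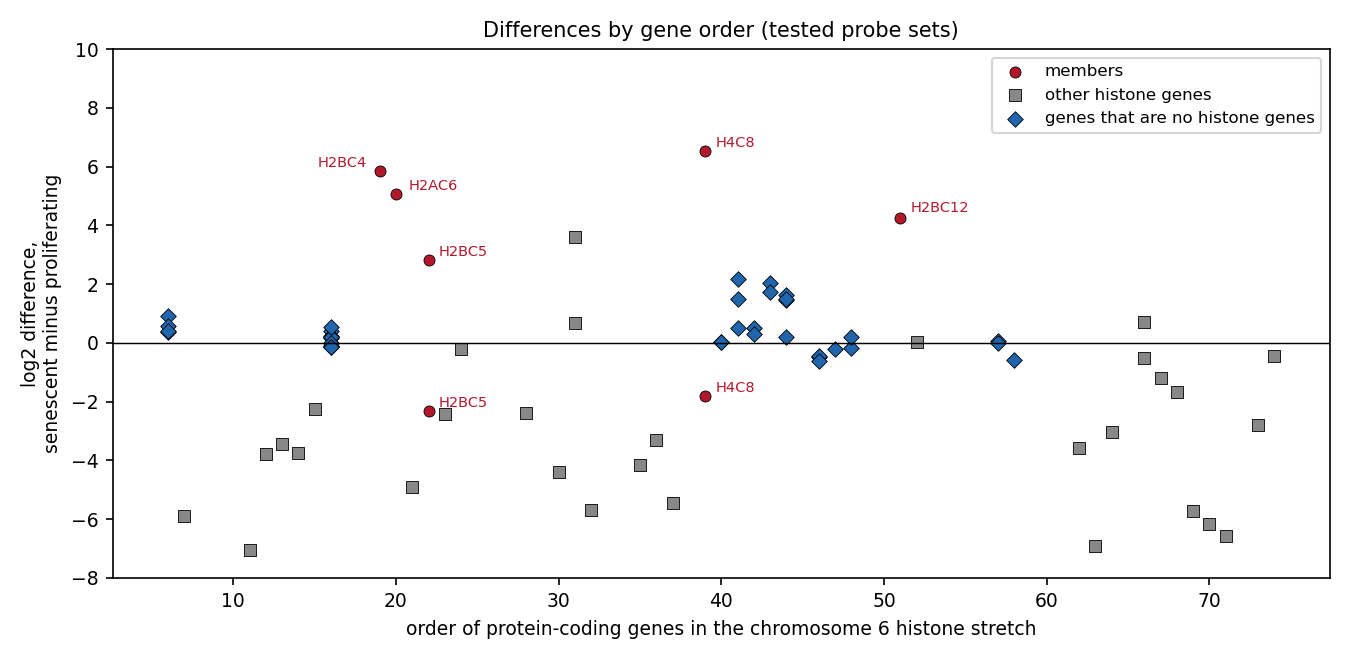
Log2 difference, senescent minus proliferating (vertical axis), of tested probe sets by the order of their genes along the 74 protein-coding genes of the chromosome 6 histone stretch (horizontal axis). The named circles above 0 stand between other histone genes (squares), which lie below it apart from H3C6, one probe set of H2AC15 and H4C9 near 0, and the genes that are no histone genes (diamonds) lie near 0 or up to 2.19 above it.

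Factors of histone mRNA were read from a list of 16 genes, of which 15 were tested. Of these 8 fell and 2 rose with a median of -0.69, and with centring on housekeeping genes 8 fell and 7 rose. Over all genes 30.3% fell and 31% rose, and with that centring 1952 of 12909 fell and 8388 rose. ERI1, the exonuclease that trims histone mRNA ends, fell by 1.61, and LSM11, a subunit of the U7 particle that directs cleavage, by 1.31. NPAT, a coactivator of histone genes and a substrate of cyclin E-CDK2, fell by 1.18 and its partner CASP8AP2 by 1.13. SLBP, which binds the stem-loop and was named after its value was seen, fell by 0.69. LSM10, the other U7-specific subunit, rose by 0.72 and the uridylyltransferase gene TUT7 by 0.35. These changes had limma adjusted p-values of at most 0.00192 for ERI1, LSM11, NPAT, CASP8AP2, LSM10 and TUT7. Without probe sets of a shared suffix 5 of 12 tested genes fell.

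Cleavage and polyadenylation factors, which make the other kind of mRNA end, numbered 19 tested genes. Of these 13 fell and 1 rose with a median of -0.50, and 5 fell and 5 rose with centring on housekeeping genes. Over all genes 30.3% fell and 31% rose, and with that centring 1952 of 12909 fell and 8388 rose. NUDT21 fell by 1.21, CPSF4 by 1.01, CSTF2 by 0.85 and CPSF3, the endonuclease that also cuts histone mRNA, by 0.84. PABPN1, the nuclear poly(A)-binding protein gene, rose by 0.85 (limma's adjusted p = 0.000342). All 8 chaperones and importers of H2A and H2B fell, by a median difference of -0.74, with 4 lower and 1 higher when centred on housekeeping genes. SSRP1 and SUPT16H, the subunits of the FACT complex, fell by 2.59 and 1.46, ANP32E by 2.07 and the importer gene IPO9 by 1.08.

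Genes for adding or removing ubiquitin on H2B, both enzymes and their partners, moved both ways. Of 12 tested genes 4 fell and 2 rose with a median of 0.01, and 3 fell and 8 rose with centring on housekeeping genes. Over all genes 30.3% fell and 31% rose, and with that centring 8388 of 12909 rose. Nothing is read from the counts of this list. The conjugating enzyme genes UBE2B and UBE2A rose by 0.67 and 0.33, and USP44, USP3, ENY2 and USP7 differed by -1.89, -0.84, -0.70 and -0.29, the last by 0.13 with that centring. The ligase genes RNF20 and RNF40, named after their values were seen, differed by 0.15 and 0.16 and did not pass.

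**Figure D4:**
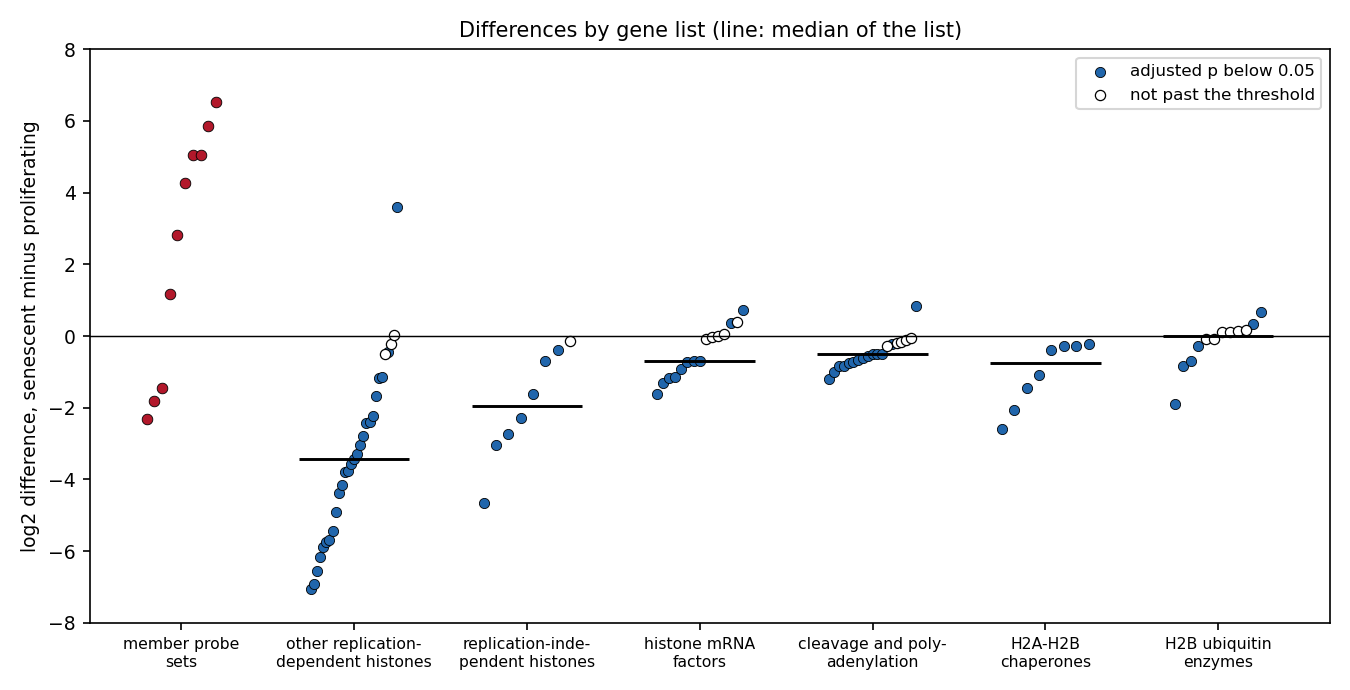
Log2 difference, senescent minus proliferating (vertical axis), of the 10 probe sets of the 7 genes and of the genes of 6 lists, with filled points for genes past limma's adjusted threshold, open points for the others and lines for list medians. The median of the other replication-dependent histones is -3.44, and those of the factor lists lie between -0.74 and 0.01.

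The order of the arrays within each group was also read. On the 3 probe sets that were lower in senescence, senescent 5 was the highest senescent array and proliferating 2 the highest proliferating array in 3 of 3 cases. The same arrays were highest on 58.1% and 64.5% of 31 tested probe sets of the other replication-dependent histone genes. Over all tested probe sets these shares were 30.2% and 20.2%. On the 7 probe sets that were higher in senescence, proliferating 2 was the highest proliferating array on none and the lowest on 4, against 26.8% of all tested probe sets, and proliferating 5 was the highest on 4, against 24.6% of all. The probe sets share the arrays, so they are not independent. Without senescent 5 and proliferating 2 the difference was 6.43 for 232035_at of H4C8, 5.67 for H2BC4 and -1.86 for 208180_s_at of H4C8.

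For each of the 7 genes the probe set with the highest difference was set against all other tested genes, by the mean absolute distance of the 10 values after subtraction of each gene's own mean. The closest to H2BC4 were TNFSF15 and LIMCH1, at distances of 0.21 and 0.25 on the log2 scale. Closest to H2AC6 were IL21R and LIPH (0.15 and 0.16), to H2BC12 CXCR4 and AMIGO1 (0.15 and 0.18) and to H2BC21 DNER and PCDHB16 (0.24 and 0.27). For H4C8 they were CCND2 and PURPL (0.28 and 0.29), for H2AC25 NAP1L5 and PLEKHM1 (0.10 and 0.11) and for H2BC5 SGIP1 and TSPAN12 (0.10 and 0.12). The proliferating means of CXCR4 and PURPL, 2.40 and 2.56, lay below the 40th percentile of these arrays, so both had low signal there. Since 5 arrays of each state enter, such a distance carries the difference between the states together with the scatter of the arrays.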

How the data were processed

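Total RNA of 5 senescent and 5 proliferating IMR90 samples was extracted with Trizol and hybridised to arrays with the 54675 probe sets of the table, per the labels' protocols. The deposited table, made by the authors, gives a log2 value for each probe set on each array, and Partek and GCRMA are listed in the submitters' processing notes, with no version, role or order. That the base is 2 was inferred from the values, which run from 0.625 to 16.17, and the settings used are not stated in these sources. Depth does not apply to arrays, and the number of arrays limits the precision.

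Of the probe sets 62 were controls, 41091 had 1 gene symbol, 1801 several and 11721 none. Symbols were updated through gene IDs in the RefSeq table (GRCh38.p14), used for names and gene order alone. Tests took in probe sets whose value exceeded the 40th percentile of the array on 5 or more of the 10 arrays. Among a gene's tested probe sets, the one of highest mean stood for it. Differences were tested two-sided with limma 3.58.1 in R 4.3.3 (lmFit, eBayes, Benjamini-Hochberg, threshold 0.05), over 12909 genes or 32732 probe sets. Genes are said to have risen or fallen only past it. SEs of the 10 probe sets of the 7 genes come from their own values. Control differences had exact permutation tests over all 252 assignments. The fit was tested on simulated data. The members, gene lists, tests and alternatives were chosen with earlier results of these data known. Named genes were the members, up to 4 passing genes per list and direction with the largest differences (the furthest gene where none passed), 2 genes of closest profile, the nearest tested neighbours, and other histone genes that were higher or had probe sets of both signs. For markers and housekeeping genes, those that bear on the results are named. Alternatives were other filters, quantile normalisation, centring on the median of 11 housekeeping genes, a replicate block, trend and robust eBayes, an ACTB covariate, the mean of probe sets, no shared probe sets, and leaving out arrays. Leaving out senescent 5 and proliferating 2 together was added after seeing the data.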

Additional observations from a re-analysis of the deposited data

Results flagged for a closer look

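Groups of 5 arrays were read for a sample far from the others, in the 10 probe sets of the 7 histone genes and in the genes named from the lists. Of 120 such groups 7 held one, and chance gives about 1 in 20. None of the 7 was in a probe set of H2BC4, H2BC12, H2BC21, H2BC5, H2AC6, H2AC25 or H4C8. H3C2, the most strongly reduced histone gene, was at 4.01 on senescent 2, with the next senescent value at 2.62. LSM10, the U7 subunit gene that rose, was at 5.45 on proliferating 4, below the next value of 6.15. NUDT21 was at 10.54 on senescent 3, with the next value at 10.47, so that the whole group was narrow. SSRP1 was at 8.89 on senescent 5, with the next at 9.40, and the housekeeping gene PGK1 at 13.41 on the same array, with the next at 13.89. COL3A1 was at 13.67 and TEK at 9.59 on proliferating 5, below the next values of 13.99 and 9.93.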

How the results depend on the processing

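The 10 probe set differences kept their signs with quantile normalisation, housekeeping centring and the ACTB covariate. The covariate does not overlap between the groups, so it cannot be told apart from the state. Leaving out arrays could not turn the signs, since the groups do not overlap on any of the 10 probe sets. The balance of counts did turn in places. With housekeeping centring more H2B ubiquitin genes were higher than lower (8 higher and 3 lower, against 2 and 4 without it), and with the ACTB covariate more of all genes were lower than higher (3034 higher and 3342 lower, against 4004 and 3909 without it). Of 310 values under alternatives 289 kept their call, or moved by less than the replicate spread or 1.5 times a count. Centring on housekeeping genes, whose own median difference is -0.29, shifted the median of all genes by 0.417. It gave 8388 genes higher and 1952 lower, against 4004 and 3909, so that 81.1% of calls were higher instead of 50.6%. The counts higher became 2 for other replication-dependent histones, 7 for histone mRNA factors and 5 for polyadenylation factors, and the count lower of the last became 5. The differences became 6.93 (232035_at), 6.28 (H2BC4), 5.48 (H2AC6), 4.68 (H2BC12), 3.24 (209911_x_at), 1.58 (221582_at), -1.04 (231681_x_at), -1.39 (208180_s_at) and -1.89 (222067_x_at). With the ACTB covariate they were 5.58 for H2BC4, 4.39 for H2BC21, -0.95 for 231681_x_at, -1.45 for 208180_s_at and -2.14 for 222067_x_at. Why these values moved was not tested. Without shared probe sets 5 histone mRNA factors were lower, with fewer genes tested. Leaving out each array in turn gave 6.38 to 6.70 for 232035_at, 5.75 to 5.93 for H2BC4 and 21 to 25 other histone genes lower. The number of these histone genes tested was 29 without a senescent array and 26 without a proliferating one, so part of that range comes from the filter. With the replicate number as a block 3861 genes were higher and 3794 lower. Arrays with the same number had deviations that correlated by -0.04 to 0.10, and of the 5 senescent arrays 1 matched its own number best, so the numbers were not read as pairs. Array signal near background limits the folds of H2BC4, H2BC21 and 232035_at of H4C8.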
